A study of Mus musculus with 4 samples.

Results

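Il21 transcript positive effector cells were CD4 T cells that held at least 1 UMI (unique molecular identifier, a tag that counts an RNA molecule once) of Il21 and no UMI of Foxp3, Cxcr5, Il17a or Il10. By that rule they were 773 of the 22534 cells kept, 3.42% ± 0.246 (SD, n = 4 libraries). They were chosen by these UMI counts alone, from single-cell 5′ RNA libraries made from the lamina propria (the mucosal layer beneath the epithelium) of the small intestine. The mice were wild-type C57Bl/6 at steady state. All 4 libraries formed 1 group with no treatment, so cells were compared with other cells of the same libraries. After removal of Peyer's patches, enzyme digestion and a Percoll gradient, cells had been sorted as CD45+ CD3+ CD4+ and negative for the dye 7AAD. The labels do not say that each library came from its own mouse. The p-values below rest on how far the difference between gates varied across libraries, and that variation may be technical.

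Interleukin-21, the product of Il21 (ENSMUSG00000027718, chr3:37222759-37232636, minus strand, GRCm38/mm10), is a cytokine of the common gamma-chain family that signals mainly through STAT3. Follicular helper T (Tfh) cells release it to drive B cells towards germinal centres and antibody-secreting plasma cells, and it also acts on CD8 T cells and natural killer cells. Th17 cells, IL-10-producing effector cells and some Th1 cells make it as well. The rule set aside cells with detected transcripts of Cxcr5 (the follicle-homing receptor), Il17a, Il10 and Foxp3 (the factor of regulatory T cells). A gene at 0 UMIs in a cell may still be transcribed there, so members may include cells that transcribe these genes. The reference for most comparisons below was the 18190 comparison cells, in which all 5 of these genes were at 0.

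The 250 bases before the annotated start of 2 genes are shown because Il21 chose the cells and Il12rb2, a subunit of the interleukin-12 receptor, was the marker that differed most between them and the comparison cells. They are RefSeq sequence of GRCm38.p6, read 5′ to 3′ on the gene's strand, at chr3:37232637-37232886 and chr6:67376189-67376438. Capitals mark matches, on either strand, to the NFAT core TGGAAA or the STAT pattern TTCNNNGAA; no 2 matches overlapped.
Il21: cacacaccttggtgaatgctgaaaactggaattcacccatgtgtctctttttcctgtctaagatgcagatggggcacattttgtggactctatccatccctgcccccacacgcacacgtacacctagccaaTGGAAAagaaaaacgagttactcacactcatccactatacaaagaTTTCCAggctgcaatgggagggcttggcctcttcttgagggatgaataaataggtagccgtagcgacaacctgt
Il12rb2: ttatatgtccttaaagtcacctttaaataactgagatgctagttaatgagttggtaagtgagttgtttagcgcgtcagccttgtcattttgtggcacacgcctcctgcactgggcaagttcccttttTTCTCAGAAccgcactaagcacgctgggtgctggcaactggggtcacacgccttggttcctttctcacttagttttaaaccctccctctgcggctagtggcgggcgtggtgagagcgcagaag
The Il21 window held the NFAT core at positions -119 and, on the other strand, -74, counted from the start to the first base of the match. The Il12rb2 window held 1 STAT match at -123. The AP-1 pattern TGANTCA matched in neither, and the windows of the markers Gadd45g and Pim2 held no match to any of the 3 patterns. Of all 32851 windows of this length, 18.58% held the NFAT core, 6.75% the AP-1 pattern and 7.02% the STAT pattern, so these matches are a description of letters and not of binding.

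The 4 libraries held between 23918884 and 28783972 UMIs and 5384 to 5910 kept cells, with median depths of 3685.5 to 4220 UMIs per cell. Any 2 libraries shared 34 to 55 barcodes. Members had a median of 4354 UMIs and comparison cells 3795.5, and 6.34% of members against 3.90% of comparison cells had a doublet score in the range set aside as doublets. Members carried the T cell list at 7146 to 7486 CPM (UMIs of a gene scaled to 1000000 UMIs of the summed cells), against 6758 to 7004 CPM in comparison cells, and Cd4 at 412, 451, 428 and 403 CPM. Myeloid markers summed to 108 to 169 CPM in members and 132 to 147 CPM in comparison cells, and B cell markers to 2.61 to 15.9 against 6.80 to 12.2 CPM. Epithelial markers summed to 6.97 to 29.5 against 12.6 to 17.6 CPM, and stromal markers to 34.0 to 49.7 against 39.1 to 41.2 CPM. Plasma cell markers reached 4.36 to 1063 CPM in members against 59.3 to 295 CPM, almost all from Jchain in single cells, and Ms4a1, Clec10a, Cd14 and the erythroid markers were at 0 in members. The comparisons below were also run without cells that held a UMI of any such marker.

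Members made up 3.41% (95% Wilson interval 2.97 to 3.91), 3.77% (3.32 to 4.29), 3.21% (2.78 to 3.71) and 3.31% (2.86 to 3.82) of the cells of libraries 1 to 4, in 193, 223, 179 and 178 cells. The intervals of all libraries overlapped. They cover counting error only. Of the members, 491 held a single Il21 UMI, just inside the threshold, 147 held 2, 71 held 3 and 64 held 4 or more, up to 14. Comparison cells lay just outside it, at 0. Summed over members, Il21 stood at 279, 354, 306 and 298 CPM, a level fixed by the rule.

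The rule took in most, but not all, cells with Il21. Of 1194 kept cells with an Il21 UMI, 343 also held Il10, 51 Il17a, 43 Foxp3 and 11 Cxcr5. Il10 alone excluded 321 cells, Il17a alone 40, Foxp3 alone 24 and Cxcr5 alone 10, and 26 held more than 1 of the 4. Shares of cells with an Il21 UMI were therefore compared across gates after each cell was thinned to 2000 UMIs. Cells with Il10 and no Foxp3 had the highest share, 12.1%, 18.4%, 18.5% and 18.3% in libraries 1 to 4 (16.8% ± 3.14, SD, n = 4; 29.0% unthinned). None of the other gates described here reached that share in its own library.

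Among cells without Foxp3, Cxcr5, Il17a and Il10, those with Ifng, the cytokine of Th1 cells that activates macrophages, held Il21 in 3.73%, 5.60%, 3.80% and 3.81% (4.23% ± 0.914). Those without Ifng held it in 1.38%, 1.56%, 1.20% and 1.07% (1.30% ± 0.215), lower in every library. Cells with both Ifng and Il12rb2 held it in 7.81% ± 1.98, and cells with Il12rb2, whether or not they held Ifng, in 5.83% ± 1.71, against 0.924% ± 0.335 of cells without Il12rb2. Il17a-positive cells stood at 2.60% ± 2.03, Cxcr5-positive cells at 2.50% ± 1.84 and Foxp3-positive cells at 0.759% ± 0.301, and neighbours among these gates did not differ beyond their spread. Cells with both Ccr7, the lymph node homing receptor, and Lef1, a factor of naive and central memory cells, served as a background, a gate set after the data were seen and not restricted by Foxp3. Of these, 3 of 391 held an Il21 UMI (0.743% ± 0.561; 2.54% unthinned), at a median of 5135 UMIs before thinning. The shares in Il17a-positive, Cxcr5-positive and Foxp3-positive cells, in cells without Ifng and in cells without Il12rb2 did not exceed this background beyond the spread between libraries. Of 28 non-T cells 0 did, which allows a share of up to 10.71%.

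**Figure D1:**
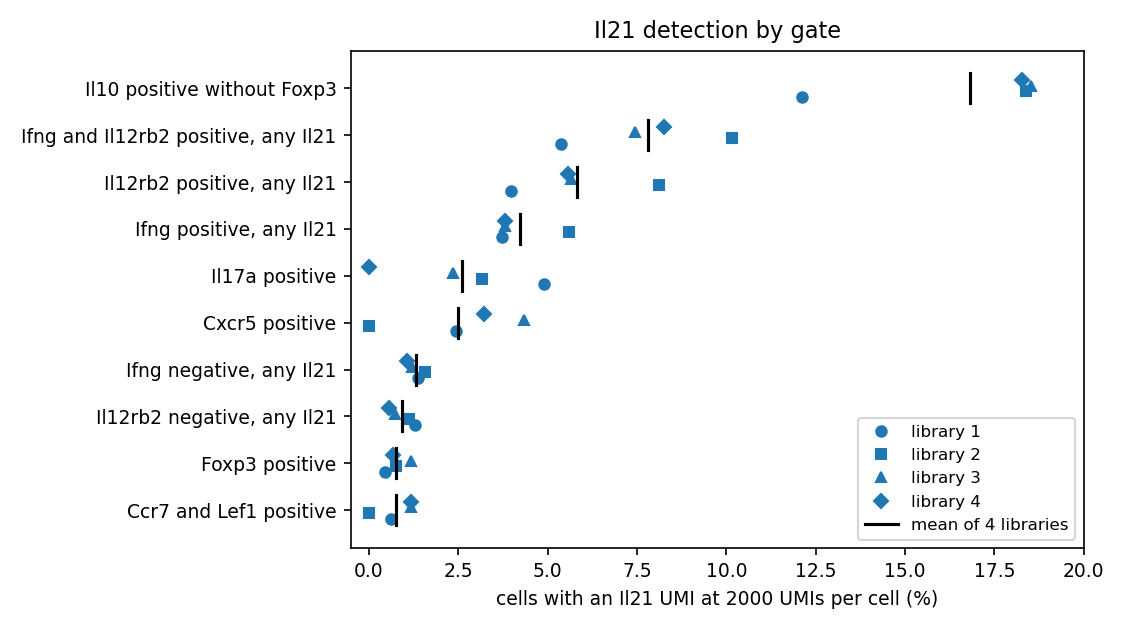
Share of cells with an Il21 UMI at 2000 UMIs per cell (x axis, percent) in 10 gates (y axis), with 1 symbol per library and a black bar at the mean. Il10-positive cells without Foxp3 lie at 12.1% to 18.5%, to the right of all other gates, and cells with Ifng and Il12rb2 come next at 7.81% on average.

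The genes that mark the cell type besides Il21 were looked at first. Il12rb2 (chr6:67291318-67376188), which makes cells respond to interleukin-12, stood at 444, 671, 632 and 698 CPM in members and at 206, 152, 195 and 164 CPM in comparison cells, 3.39-fold higher. Gadd45g (chr13:51846678-51848468), a stress-inducible activator of the p38 kinase pathway that augments Ifng transcription in Th1 cells, stood at 147, 250, 261 and 182 against 88.3, 75.1, 95.6 and 76.1 CPM (2.48-fold). Pim2 (X, 7878262 to 7883432), a survival kinase induced by cytokines, stood at 151, 175, 212 and 185 against 82.1, 80.0, 84.3 and 67.7 CPM (2.28-fold). Members lay above comparison cells in every library for all 3 genes, with no overlap. Here and for the genes below, the share of all genes without overlap was not computed. The cell type was proposed on these genes, so the values are a description.

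Ifng, used below to split the cells, stood at 586, 827, 723 and 780 CPM in members and at 264, 270, 280 and 230 CPM in comparison cells (2.77-fold). An Ifng UMI was found in 58.6% ± 2.11 of members, 454 cells, and in 32.4% ± 2.04 of comparison cells. At 2000 UMIs per cell the shares were 44.8% ± 4.08 and 23.0% ± 1.94, against 6.18% in cells with Ccr7 and Lef1 and 14.1% in Cxcr5-positive cells. The gap between members and comparison cells was larger than the spread between libraries at both depths.

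Against the comparison cells, members were marked by higher transcripts of the interleukin-12 and interleukin-18 receptors, of the protease Furin and its gene neighbour Fes, of the costimulatory receptor Tnfrsf4, of the chemokine receptor Cxcr6 and of Gzmb, and by lower transcripts of naive and memory genes. With edgeR's quasi-likelihood test, libraries as a block and Benjamini-Hochberg adjustment, 872 of 10940 genes (7.97%) passed an adjusted p of 0.05, of which 483 (4.41%) were higher and 389 (3.56%) lower in members. The median log2 fold change of all genes tested was -0.01. Without library 3 the count was 542, and it was also 542 with every cell thinned to 2000 UMIs. Each gene said to rise or fall in the following paragraphs moved the same way in 4 of 4 libraries unless stated, and adjusted p-values are from that test.

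Receptors for cytokines came first. Of the 21 cytokine receptor genes listed, 8 rose (Il12rb2 among them) and 3 fell, with a median log2 fold change of 0.25. Il18r1, the binding chain of the interleukin-18 receptor, stood at 255, 333, 411 and 320 CPM in members and at 127, 131, 141 and 114 CPM in comparison cells. It rose by 1.34 ± 0.08 (log2, SE; edgeR adjusted p = 1.27e-09), and every member value exceeded every comparison value. Its partner chain Il18rap, at 94.96, 142, 129 and 126 against 60.5, 58.9, 69.8 and 49.9 CPM, rose by 1.04 ± 0.10 (edgeR adjusted p = 1.03e-06). Il12rb1, the chain that the receptors for IL-12 and IL-23 share, rose less, by 0.57 ± 0.07 (edgeR adjusted p = 3.63e-05), from 93.7 to 139 CPM on average. Of the 11 Th1 markers tested 7 rose (Il12rb2 among them) and 2 fell (median 0.41). Those that fell were the chemokine gene Ccl5, lower in 3 of 4 libraries, and the chemokine receptor Cxcr3, at 185, 188, 193 and 193 against 215, 227, 268 and 252 CPM.

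Tbx21, which encodes T-bet, the factor that directs Th1 cells, did not pass the test (log2 fold change -0.09 ± 0.08, edgeR adjusted p = 0.639). It stood at 67.1, 97.9, 84.3 and 80.7 CPM in members and at 78.6, 87.8, 91.5 and 91.4 CPM in comparison cells, so members were lower in libraries 1, 3 and 4 and higher in library 2. At 2000 UMIs per cell it was detected in 17.8% of members and 15.7% of comparison cells, against 1.91% of cells with Ccr7 and Lef1. Tbx21 was singled out after its values were seen.

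Furin and Tnfrsf4 were among the genes that rose. Furin (chr7:80388585-80405436), the proprotein convertase that processes TGF-beta and other precursors and is induced by interleukin-12, stood at 708, 1249.7, 1040.0 and 903 CPM in members and at 335, 355, 343 and 226 CPM in comparison cells. It rose by 1.62 ± 0.10 on the log2 scale (3.08-fold, edgeR adjusted p = 1.43e-09). Fes (chr7:80377756-80387946), a tyrosine kinase gene on the same strand directly downstream of Furin, stood at 105, 117, 90.6 and 74.1 against 44.7, 37.0, 26.6 and 17.9 CPM. It rose by 1.63 ± 0.12 (3.09-fold, edgeR adjusted p = 2.63e-08). The members lay above the comparison cells in all libraries for both neighbours. Tnfrsf4, the costimulatory receptor OX40 of activated T cells, stood at 426, 563, 511 and 345 against 193, 177, 155 and 120 CPM and rose by 1.51 ± 0.08 (2.85-fold, edgeR adjusted p = 3.89e-10).

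Single cells were also scored for whether they held a UMI of these genes. At 2000 UMIs, Il12rb2 was detected in 55.1% of members, 18.9% of comparison cells, 5.55% of Cxcr5-positive cells and 5.99% of cells with Ccr7 and Lef1. Furin was detected in 70.6%, 28.9%, 12.1% and 14.4% of them. Tnfrsf4 was detected in 35.1% of members and 15.1% of comparison cells (SD 5.90 and 3.06), in 41.3% ± 15.5 of Cxcr5-positive cells and in 16.9% ± 1.52 of cells with Ccr7 and Lef1. The share in comparison cells did not differ from that background beyond the spread, nor did members and Cxcr5-positive cells. Median depths before thinning were 4354, 3795.5, 5281 and 5135 UMIs.

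**Figure D2:**
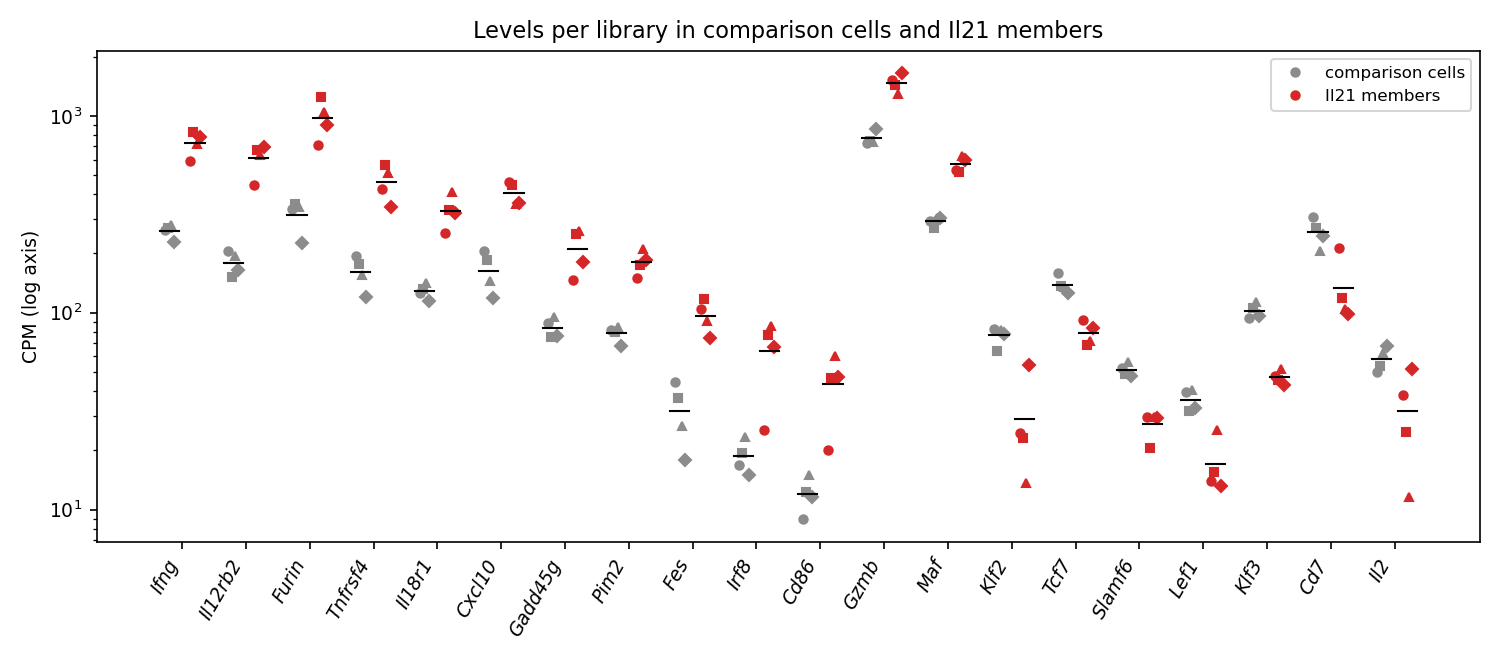
Levels of 20 genes (CPM of summed UMIs, log axis) in comparison cells (grey) and in Il21 members (red), 1 symbol per library with a black bar at the mean. Il12rb2, Furin and Tnfrsf4 lie higher in members in each of the 4 libraries, and Klf2, Tcf7, Slamf6 and Klf3 lower.

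Among chemokine receptors and chemokines, Cxcr6, a receptor of tissue-resident cells, rose by 0.92 ± 0.05 (edgeR adjusted p = 6.3e-10), from 457 to 875 CPM on average. Cxcl10, a chemokine induced by interferon that attracts Cxcr3-bearing cells, stood at 460, 445, 357 and 361 against 205, 186, 144 and 118 CPM and rose by 1.32 ± 0.07 (edgeR adjusted p = 3.89e-10). The 7 interferon response genes tested gave no call. Of 13 chemokine and homing receptors 3 rose and 4 fell (median -0.22), and Gpr183, which guides cells along oxysterol gradients, was among those that fell (-0.59 ± 0.10, edgeR adjusted p = 0.000669; 0.058 without the library block).

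Cytokine and killing genes moved unevenly. Of 18 effector cytokines and chemokines 3 rose and 4 fell (median 0.22). Xcl1, a chemokine for cross-presenting dendritic cells, rose by 0.66 ± 0.06 (edgeR adjusted p = 1.82e-07), and Il4, the Th2 cytokine, fell by 1.52 ± 0.26 on the log2 scale (edgeR adjusted p = 0.000761), a call that ended under several settings, among them thinning. Il2, the T cell growth factor, lies near Il21 on chromosome 3 (37120523 to 37125959). It stood at 38.3, 24.9, 11.6 and 51.6 CPM in members and at 50.2, 53.4, 62.5 and 67.6 CPM in comparison cells, and fell by 0.87 ± 0.18 (edgeR adjusted p = 0.00421; singled out after its values were seen). Il2 was lower in members of each library, although the ranges overlapped. Of 9 granzyme and killing genes 3 rose and 0 fell (median 0.07): the proteases Gzmb and Gzma and the granule gene Nkg7. Gzmb stood at 1523, 1433.5, 1284.5 and 1649 against 730, 747, 739 and 859 CPM and rose by 0.93 ± 0.04 (1.91-fold, edgeR adjusted p = 2.28e-11). Prf1, which encodes the pore protein perforin, did not pass (0.07 ± 0.14, edgeR adjusted p = 0.859). Of 11 cytotoxic markers, a list that shares the granzymes and adds CD8 chains and natural killer-type receptors, 2 rose (Gzma and Gzmb) and 4 fell (Cd8a, Cd8b1, Cd160 and Klrd1), with a median of -0.77. Cd8a lost the call without the library block and with DESeq2 (adjusted p = 0.43 in each).

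Antigen receptor and NF-kappaB signalling induce known sets of genes. Of 18 TCR-induced genes 12 rose and 2 fell (median 0.42), and of 12 NF-kappaB genes 8 rose and 0 fell (median 0.39). Nfkbia, the inhibitor that NF-kappaB induces as feedback, stood at 1567, 1685, 1590 and 1604 CPM in members and 1120, 1003, 891 and 691 CPM in comparison cells, and rose by 0.81 ± 0.07 (edgeR adjusted p = 5.57e-07). Cd69, an early activation marker that holds cells in tissue, rose by 0.44 ± 0.05 (edgeR adjusted p = 2.42e-06). Of 14 Gadd45 and MAP kinase feedback genes 3 rose (the marker Gadd45g among them) and 2 fell (median -0.10). Gadd45b, a relative of Gadd45g, rose by 0.98 ± 0.05 (edgeR adjusted p = 6.3e-10), from 796, 724, 610 and 491 to 1355.5, 1451, 1215 and 1126 CPM. The phosphatase gene Dusp10, which restrains JNK and p38, fell by 0.75 ± 0.07 on the log2 scale (edgeR adjusted p = 3.72e-07). Of 14 genes that tissue dissociation is known to induce 3 rose and 2 fell (median 0.06).

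Feedback, survival and growth genes followed. Of 8 SOCS and PIM genes 5 rose (the marker Pim2 among them) and 0 fell (median 0.39). Pim1, a kinase related to Pim2, rose by 0.88 ± 0.09 (edgeR adjusted p = 3.32e-06). Of 9 Bcl2 family genes 3 rose and 1 fell. Bcl2l1, the anti-apoptotic Bcl-xL, rose by 0.94 ± 0.12 (edgeR adjusted p = 3.47e-05, but 0.12 with thinning). Bcl2a1b and Bcl2a1d, also called higher, lost their calls in 10 and 4 other settings. Bcl2 fell by 0.59 ± 0.08 (edgeR adjusted p = 0.000107, but 0.054 without the library block). Of 11 glycolysis genes 6 rose and 0 fell (median 0.18), and of 10 ribosome biogenesis genes 6 rose and 0 fell (median 0.28). Members were deeper than comparison cells. Pgk1 and Pkm of the first list, and Ncl and Myc of the second, lost their calls with thinning and at 3000 to 6000 UMIs. Hk2, Pgam1 and Odc1 kept theirs in both settings. Of 8 cycling markers 4 rose and 0 fell (median 0.36), and the list summed to 437 to 638 CPM in members against 348 to 431 CPM in comparison cells. With cells that held a cycling marker left out, a setting added after the data were seen, 799 genes passed in all, and Hk2, the hexokinase of activated T cells, was still called (0.55 ± 0.10 with all cells, edgeR adjusted p = 0.00131; 0.08 without the library block). Nop58, of the ribosome biogenesis list, lost its call there (edgeR adjusted p = 0.00603 with all cells, 0.064 without cycling cells).

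Of 20 genes known to induce or regulate Il21, 12 rose (the marker Il12rb2 among them) and 2 fell (median 0.30). Maf, the factor that activates Il21 and Il10 transcription in helper cells, stood at 528, 518, 628 and 597 CPM in members and 294, 271, 304 and 303 CPM in comparison cells. It rose by 0.95 ± 0.05 (edgeR adjusted p = 6.3e-10), with no overlap. Ahr, the receptor for aryl hydrocarbons from diet and microbes, rose by 0.66 ± 0.07 (edgeR adjusted p = 3.99e-06). Irf8, an interferon regulatory factor, stood at 25.3, 77.3, 85.4 and 66.6 against 16.9, 19.3, 23.5 and 15.1 CPM and rose by 1.73 ± 0.18 (edgeR adjusted p = 2.21e-06). The value of library 1 was the lowest of the member values. Cd86, a costimulatory ligand best known from antigen-presenting cells, stood at 20.0, 46.4, 60.1 and 46.9 against 8.94, 12.4, 15.0 and 11.7 CPM and rose by 1.82 ± 0.16 (edgeR adjusted p = 3.59e-07). Irf8 and Cd86 are also transcribed in myeloid cells. Of 6 myeloid markers 3 could be tested, and 0 were called. Both genes kept their calls without cells that held a marker of another cell type, a setting that removed 438 of 773 members. Whether other cell types contributed these transcripts was not tested.

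Of 7 co-inhibitory receptors, which restrain T cell activation, 4 rose and 1 fell (median 0.66). Tigit stood at 274, 222.5, 234 and 254 CPM in members and 146, 129, 130 and 122 CPM in comparison cells (0.90 ± 0.07, edgeR adjusted p = 3.17e-08). Lag3, a receptor for MHC class II, rose by 1.02 ± 0.11 (edgeR adjusted p = 3.02e-06) and Pdcd1, which encodes PD-1, by 0.82 ± 0.09 (edgeR adjusted p = 5.14e-06). Of 14 follicular helper markers 5 rose (Maf, Pdcd1, Tnfsf8, Icos and, higher in 3 of 4 libraries, Il6st) and 2 fell (median 0.29). Slamf6, a receptor of T cell and B cell contacts, fell by 0.93 ± 0.12 on the log2 scale (edgeR adjusted p = 3.87e-05). Cd40lg, the gene of the CD40 ligand that delivers help to B cells, was also called lower, but the share of cells that held it differed little. It was detected in 60.5% of members and 64.3% of comparison cells after thinning, and in 78.65% and 78.49% before thinning. Bcl6, the factor of follicular helper cells, stood at 11.3, 12.02, 14.8 and 11.3 against 8.66, 7.94, 8.82 and 9.07 CPM and did not pass (0.50 ± 0.22, edgeR adjusted p = 0.199). Of 7 regulatory T cell markers 4 rose (Tnfrsf4, Ctla4, Ikzf2 and Tnfrsf18) and 0 fell (median 0.41), in cells that held no Foxp3 UMI. Whether some members transcribed Foxp3 or Il10 without detection was not tested.

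All 8 naive and central memory markers fell, with a median log2 fold change of -1.74. The list summed to 122 to 190 CPM in members and 291 to 413 CPM in comparison cells. Klf2, the factor that keeps cells in circulation, stood at 24.4, 23.2, 13.7 and 54.4 CPM in members and 82.8, 63.7, 82.1 and 77.8 CPM in comparison cells and fell by 1.40 ± 0.18 on the log2 scale (edgeR adjusted p = 4.08e-05). S1pr1, the egress receptor that Klf2 activates, fell by 1.39 ± 0.26 (edgeR adjusted p = 0.00146). Tcf7, the factor of memory and self-renewing T cells, stood at 91.5, 68.7, 71.7 and 83.5 against 159, 136, 134 and 126 CPM and fell by 0.83 ± 0.08 (edgeR adjusted p = 1.45e-06). Member values lay below all comparison values for Klf2, S1pr1 and Tcf7. Klf3, a repressor of the Klf family, fell by 1.12 ± 0.09 (edgeR adjusted p = 7.19e-08), and Car2, a carbonic anhydrase, by 1.58 ± 0.19 (edgeR adjusted p = 1.22e-05).

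Levels were also set out by the number of Il21 UMIs in a cell, as a description over the 4 libraries. Cells with 0, 1, 2 and at least 3 Il21 UMIs held Il12rb2 at 179, 508, 719 and 836 CPM, and Furin at 315, 890, 1114 and 1120.5 CPM. Maf stood at 293, 506, 649 and 686 CPM and Ifng at 261, 670, 658 and 929 CPM. Il2 ran the other way, at 58.4, 42.4, 17.7 and 15.8 CPM. The step from 0 to 1 was larger than the later steps for each of these 5 genes but Il2. Ifng did not rise from 1 to 2 Il21 UMIs, and Fes, at 31.6, 93.0, 125 and 83.9 CPM, had no steady order among cells with Il21.

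Members were next split by Ifng, into 454 cells with at least 1 Ifng UMI (113, 137, 101 and 103 in libraries 1 to 4; median 4463 UMIs) and 319 without (80, 86, 78 and 75; median 4177 UMIs). Members with Ifng held more transcripts of Gzmb, Xcl1, Fes and the granule gene Nkg7, and members without Ifng more of Izumo1r, Tox2, Tnfsf8, Slamf6 and Tcf7. In 1 edgeR quasi-likelihood fit of members and comparison cells, each split by Ifng, 195 of 10085 genes (1.93%) passed, 101 (1.0%) higher and 94 (0.932%) lower in members with Ifng. The median log2 fold change was 0.01. The count was 64 without library 2, 96 without library 3, 84 without library 4, 15 with thinning and 0 when members had at least 2 Il21 UMIs (447 higher and 206 lower at an unadjusted p of 0.05), and no named gene kept its call under every setting.

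Granule genes were higher in members with Ifng. Gzmb stood at 1724, 1763, 1447 and 2323 CPM in members with Ifng and at 1210.1, 861, 1052 and 610.2 CPM in members without. It rose by 0.96 ± 0.14 (edgeR adjusted p = 0.000325), with no overlap. Xcl1 stood at 566, 844, 722 and 673 against 311, 470, 182 and 429 CPM and rose by 1.02 ± 0.13 (edgeR adjusted p = 0.000148). Fes stood at 130, 150, 107 and 104 against 64.5, 58.8, 66.5 and 28.6 CPM and rose by 1.20 ± 0.21 (edgeR adjusted p = 0.00337; 0.081 without library 2 and 0.1 with thinning). Gzmb, Xcl1 and Nkg7 (0.56 ± 0.07, edgeR adjusted p = 0.000148) lost the call only with at least 2 Il21 UMIs required. Of 9 granzyme and killing genes 4 rose and 0 fell (median 0.52), and of 11 Th1 markers 5 rose (Il12rb2 among them) and 0 fell (median 0.39). Il12rb2 stood at 553, 797, 702 and 824 CPM in members with Ifng and 276, 452, 532 and 503 CPM in members without.

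Some follicular helper markers lay on the other side. Of the 14 tested, 5 were lower in members with Ifng, 1 (Maf) was higher and 8 were not called (median -0.25). Izumo1r and Tcf7, given below, were not on that list. Izumo1r, the folate receptor 4 of follicular helper and regulatory cells, stood at 68.7, 62.2, 53.7 and 43.3 CPM in members with Ifng and 167, 122, 105 and 191 CPM in members without, a log2 difference of -1.34 ± 0.18 (edgeR adjusted p = 0.00016; 0.41 with thinning). Tox2, a factor that promotes follicular helper cells, stood at 34.4, 28.4, 25.1 and 15.5 against 84.5, 56.5, 66.5 and 50.1 CPM, -1.30 ± 0.24 (edgeR adjusted p = 0.00395; 0.95 with thinning). Neither gene overlapped between the gates. Tnfsf8, the ligand of CD30, stood at 127, 166, 93.1 and 82.0 against 227, 351, 131 and 391 CPM, -1.21 ± 0.23 (edgeR adjusted p = 0.00475; 0.11 with thinning). Slamf6 (edgeR adjusted p = 0.0234) and Tcf7 (edgeR adjusted p = 0.00707) were lower as well. Slamf6 lost the call without library 2 (0.087), library 3 (0.21) or library 4 (0.094), and Tcf7 without library 4 (0.059); with thinning both did (0.96 and 0.97). Bcl6 did not pass (-0.35 ± 0.35, edgeR adjusted p = 0.801). Izumo1r and Tox2 did not pass between members and comparison cells as a whole (edgeR adjusted p = 0.963 and 0.281).

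Jchain, which encodes the joining chain of secreted IgA, had the largest difference, 7.89 ± 1.42 on the log2 scale (edgeR adjusted p = 0.00337). It came from single cells: in libraries 2, 3 and 4, 1 member each held 192, 995 and 662 of the 210, 999 and 664 Jchain UMIs of all members of that library.

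**Figure D3:**
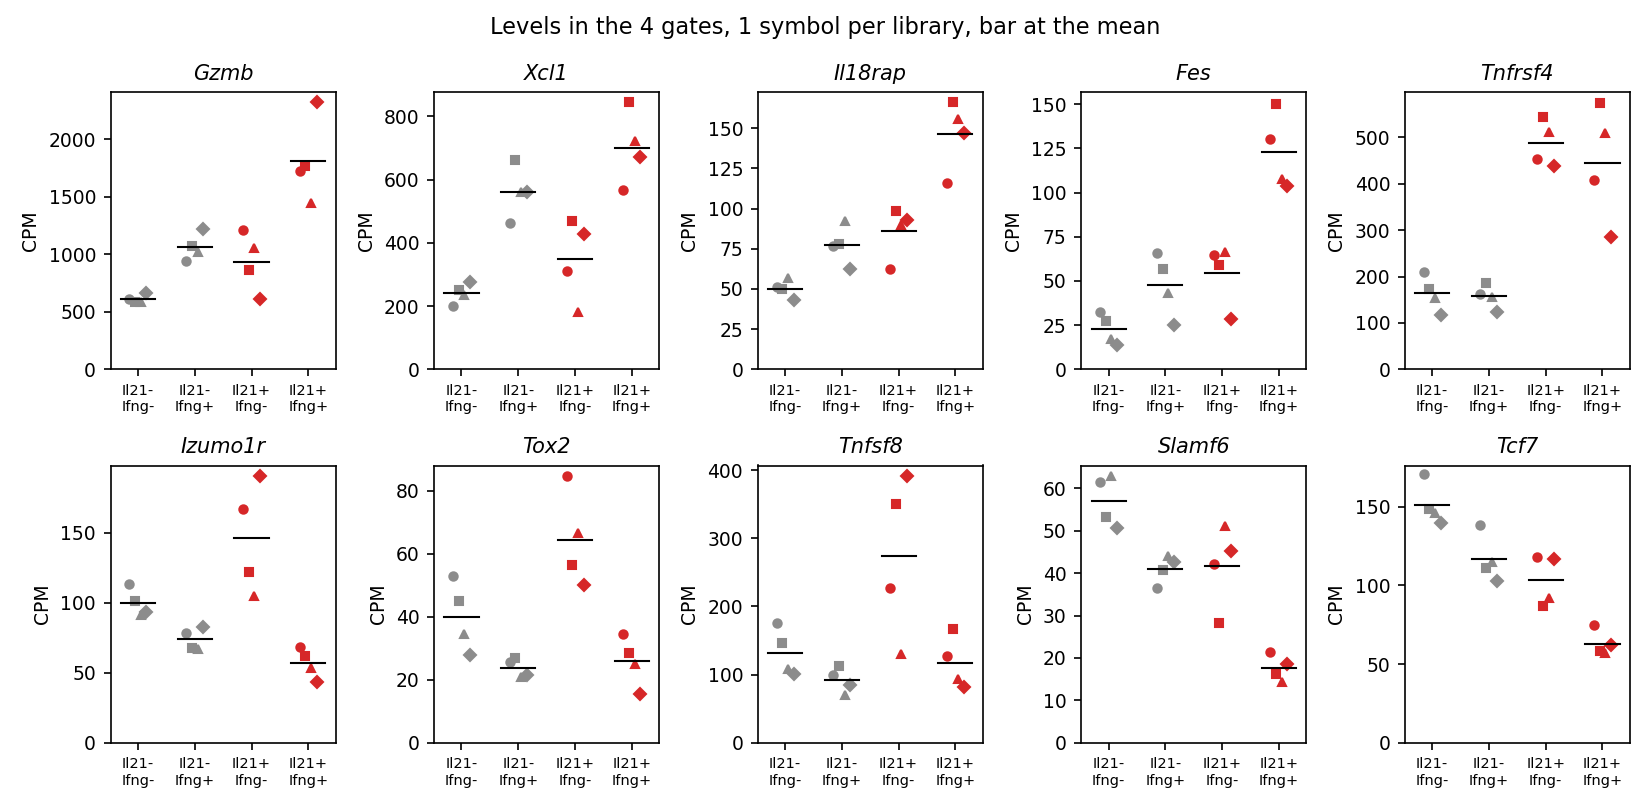
Levels of 10 genes (CPM of summed UMIs, linear axis from 0) in cells without Il21 and without Ifng, without Il21 and with Ifng, with Il21 and without Ifng, and with both, 1 symbol per library with a black bar at the mean. Gzmb, Xcl1 and Fes have their highest mean with both, whereas Izumo1r, Tox2 and Tnfsf8 are lower in members with Ifng than in members without.

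Members with Ifng were also set against the 5894 comparison cells with at least 1 Ifng UMI. The gate matched detection of Ifng and not its level, which was 964, 1303, 1229 and 1287 CPM in these members and 721, 819, 774 and 648 CPM in these comparison cells. In the same fit 466 of 10085 genes (4.62%) passed, 280 (2.78%) higher and 186 (1.84%) lower in members, with a median of -0.01. The count was 215 without library 2, 282 without library 3, 306 without library 4 and 241 with thinning. Tnfrsf4 stood at 408, 575, 510.5 and 285 CPM in members and 163, 186, 156 and 124 CPM in comparison cells and rose by 1.49 ± 0.11 (edgeR adjusted p = 1.94e-08). Furin stood at 795, 1425, 1223 and 1169 against 485, 536, 551 and 342 CPM and rose by 1.29 ± 0.12 (edgeR adjusted p = 3.77e-07). Both genes had no overlap between the groups. Fes (1.37 ± 0.14), Il18r1 (1.14 ± 0.09), Tigit (1.01 ± 0.09), Il18rap (0.93 ± 0.11), Maf (0.89 ± 0.06) and Gzmb (0.78 ± 0.11) also rose, with edgeR adjusted p-values of at most 0.000135. Il12rb2 stood at 291 CPM in comparison cells with Ifng and 719 CPM in members with Ifng on average.

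Other lists in this comparison ran as follows. Of 20 Il21 regulators 10 rose (Il12rb2 among them) and 1 fell (median 0.27), and of 7 co-inhibitory receptors 4 rose and 1 fell (median 0.67). Of 8 naive markers 1 fell (median -0.91), of 11 cytotoxic markers 1 rose and 2 fell (median -1.0), and of 8 cycling markers 0 were called (median -0.12). Slamf6 fell by 1.19 ± 0.20 on the log2 scale (edgeR adjusted p = 0.000619; 0.25 with thinning) and Tcf7 by 0.88 ± 0.10 (edgeR adjusted p = 4.75e-06). Cd160, an inhibitory receptor of intestinal and natural killer-like lymphocytes, stood at 172, 114, 113 and 119 CPM in members and 291, 264, 226 and 260 CPM in comparison cells, and fell by 1.00 ± 0.11 (edgeR adjusted p = 5.46e-06). Car2 fell by 2.19 ± 0.23 (edgeR adjusted p = 2e-06). Il2 fell by 1.34 ± 0.34 (edgeR adjusted p = 0.0218), from 54.7, 47.5, 58.9 and 60.2 to 47.3, 9.47, 10.7 and 17.0 CPM, but with an adjusted p of 0.17 without library 2, 0.096 without library 3 and 0.072 without library 4. Tbx21 did not pass here either (-0.21 ± 0.10, edgeR adjusted p = 0.324).

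Whether the difference tied to Il21 depended on Ifng was tested as an interaction. Of 10085 genes 11 (0.109%) passed, 8 (0.0793%) with a positive and 3 (0.0297%) with a negative term, and 430 and 464 did at an unadjusted p of 0.05. The count was 32 without library 1, 4 without library 2, 7 without library 3, 6 without library 4, 7 with thinning and 0 without the library block (318 and 380 at an unadjusted p of 0.05). Arid5a, an RNA-binding regulator that stabilises cytokine transcripts, averaged 139 CPM in members with Ifng and 94.1 CPM in members without, against 144 and 153 CPM in comparison cells (interaction 0.69 ± 0.12, edgeR adjusted p = 0.0152; 0.096 without library 1, 0.18 without library 2, 0.084 without library 4). Tuba1b, an alpha-tubulin that rises in dividing cells, averaged 214 and 328 CPM in members with and without Ifng and 244 and 207 CPM in comparison cells (-0.81 ± 0.16, edgeR adjusted p = 0.037; 0.96 without cells that held a cycling marker). None of Izumo1r, Tox2, Tnfsf8, Gzmb or Xcl1 was among the 11 genes. For these it was not shown that the difference tied to Il21 depended on Ifng.

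The last comparison set members against the 115 Cxcr5-positive cells (41, 19, 23 and 32 in libraries 1 to 4) that held no Foxp3, Il17a or Il10, the nearest cells of follicular type. Members held more of the Th1-type receptors, granule genes and tissue-residence genes, and Cxcr5-positive cells more of the follicular and memory genes. Of 6293 genes tested 473 (7.52%) passed edgeR's quasi-likelihood test, 244 (3.88%) higher and 229 (3.64%) lower in members. The count was 274 without library 3 and 263 with thinning. In library 2 Jchain, a plasma cell marker, stood at 4857 CPM in Cxcr5-positive cells. Without cells that held markers of another cell type, 203 genes passed.

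Of 11 Th1 markers 8 rose in members (Il12rb2 among them) and 0 fell (median 1.75). Il12rb2 stood at 69.9, 136, 14.3 and 15.7 CPM in Cxcr5-positive cells, 10.7-fold below members. Il18r1 stood at 69.9, 95.7, 50.1 and 35.3 CPM there and rose by 2.35 ± 0.22 in members (edgeR adjusted p = 1.64e-05). Gzmb stood at 143, 231, 0 and 282 CPM there and rose by 3.21 ± 0.36 (edgeR adjusted p = 5.04e-05). Neither of these tested genes overlapped with the member values given above. Fgl2, a secreted suppressive mediator, stood at 74.9, 104, 151 and 139 CPM in members and 3.68, 7.98, 0 and 15.7 CPM in Cxcr5-positive cells. It entered the test through members, so its log2 difference of 3.84 ± 0.39 is a description. Plac8 was at 0 in all Cxcr5-positive cells and at 49.0 CPM in members, at least 12.9-fold higher against a floor of 3 counts over the Cxcr5-positive group. Prdm1, whose product Blimp-1 opposes Bcl6, rose by 2.73 ± 0.39 (edgeR adjusted p = 0.000393). Of 12 adhesion and tissue-residence genes 11 were tested, of which 6 rose and 1 fell. Between members and comparison cells all 12 were tested, of which 2 rose and 4 fell (median -0.04). Itgae, the CD103 integrin chain that binds epithelium, rose by 2.08 ± 0.25 (edgeR adjusted p = 0.000122), and the gut-homing receptor Ccr9 by 2.46 ± 0.19 (edgeR adjusted p = 2.57e-06).

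Of 13 follicular helper markers 2 rose and 8 fell in members (median -1.41). Bcl6 stood at 58.8, 23.9, 64.3 and 54.9 CPM in Cxcr5-positive cells and 11.3, 12.02, 14.8 and 11.3 CPM in members, and fell by 2.11 ± 0.34 on the log2 scale (edgeR adjusted p = 0.00126). Tox2 stood at 268, 191, 286 and 137 CPM there against 54.0, 38.6, 42.1 and 29.1 CPM in members (-2.45 ± 0.19, edgeR adjusted p = 2.47e-06). Sostdc1, a secreted antagonist made by follicular helper cells, stood at 368, 351, 300.3 and 294 CPM there and at 20.0, 0, 0 and 0 CPM in members. It entered the test through Cxcr5-positive cells, so its fall by 6.06 ± 0.53 on the log2 scale is a description. Slamf6 (-2.63 ± 0.22), Btla (-2.36 ± 0.29) and Pdcd1 (-1.41 ± 0.21) were lower in members as well, with edgeR adjusted p-values of at most 0.000641. All 5 naive markers tested fell (median -2.81), among them Ccr7 (-4.31 ± 0.60, edgeR adjusted p = 0.000353). Tnfrsf4, Icos and Tigit are shared with follicular helper cells: Tnfrsf4 did not pass (-0.08 ± 0.13, edgeR adjusted p = 0.853), Icos did not (0.12 ± 0.12, edgeR adjusted p = 0.715), and Tigit was lower in members (-1.01 ± 0.20, edgeR adjusted p = 0.00492; 0.074 without library 3). The ± values on log2 differences are SE.

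**Figure D4:**
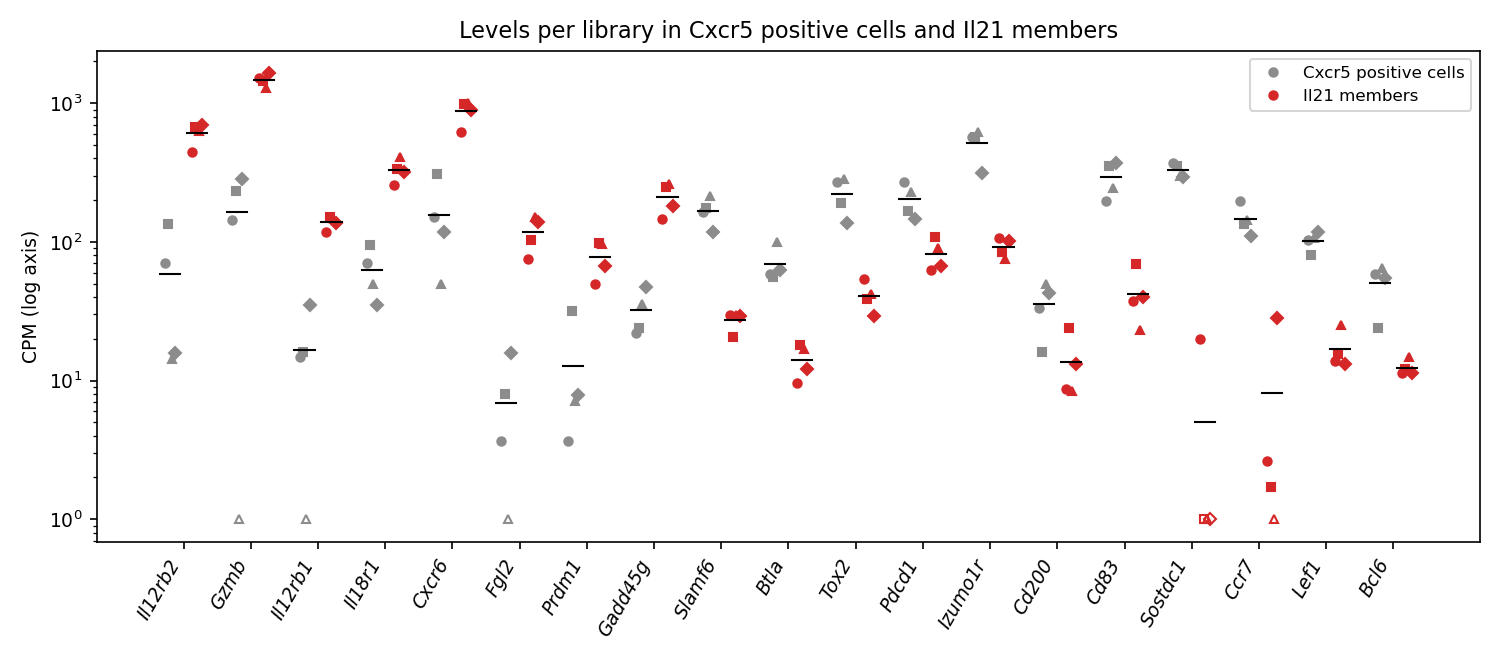
Levels of 19 genes (CPM of summed UMIs, log axis) in Cxcr5-positive cells (grey) and in Il21 members (red), 1 symbol per library with a black bar at the mean; open symbols at 1 CPM stand for 0. Il12rb2, Gzmb and Il18r1 lie higher in members, and Slamf6, Tox2 and Bcl6 lie higher in Cxcr5-positive cells, in each of the 4 libraries.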

How the data were processed

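Libraries were made with a 5′ droplet kit and counted with Cell Ranger 3.0.2 on the mm10 build (named in the submitters' processing notes), and the authors deposited whole-number UMI counts per gene and barcode for 4 libraries, 22904 barcodes in all. Of the 31053 gene identifiers 30934 matched GENCODE M21, which gave positions. Barcodes had to hold 500 or more genes and 1000 or more UMIs, of which no more than 10% were mitochondrial. Doublets were scored with Scrublet (scanpy 1.11.5) and left in, except in an alternative. UMI counts were summed per library and gate and tested with edgeR 4.0.16 (R 4.3.3): TMM scaling, filterByExpr, quasi-likelihood fits with the library as a block, Benjamini-Hochberg adjustment over all genes tested. Sums of both gates came from the same library, which is where the pairing comes from. Genes that defined a gate were not tested. DESeq2 1.42.0 was an alternative, with other scalings, filters and cell gates. The fits were tested on simulated data. Shares across gates were computed after cells were thinned to 2000 UMIs, and the 23 members and 654 comparison cells below that were left out there. Named genes were, per comparison, the 12 highest and 12 lowest log2 fold changes that passed, moved alike in 4 of 4 libraries and reached 20 CPM in a gate, with up to 4 genes per list by adjusted p. The members and lists were chosen with earlier results of these data known. Promoter windows came from RefSeq. Some genes that passed a test are not reported here.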

Additional observations from a re-analysis of the deposited data

Results flagged for a closer look

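In 28 sets of 4 library values, 4 had 1 library far from the others by Dixon's test, which chance gives in about 1 of 20 sets. These were members' levels of Car2 (14.1 CPM in library 4, against 7.84 to 8.59 CPM), Gramd3 (53.1 CPM in library 1), Lmo4 (25.3 CPM in library 4) and Serpinb1a (22.7 CPM in library 1). Each gene was lower in members than in comparison cells of every library, which the choice of these genes required.

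The log2 difference tied to Il21 differed between cells with and without Ifng, by the interaction test of edgeR with adjusted p, for 6 genes described here. These were Jchain (11.13), Arid5a (0.69), Vps37b (0.57, an ESCRT component), Acp1 (-0.88, a phosphatase), Tuba1b (-0.81) and Ccl1 (-4.31, a chemokine). Vps37b averaged 725 and 545 CPM in members with and without Ifng and 796 and 864 CPM in comparison cells with and without it. Acp1 averaged 46.2 and 83.2 CPM in the same member gates and 66.2 and 63.4 CPM in comparison cells. Ccl1 averaged 6.92 and 39.6 CPM in members and 28.3 and 7.53 CPM in comparison cells, and was lower in 3 of 4 libraries. Most Jchain UMIs of members came from 1 cell in each of libraries 2, 3 and 4.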

How the results depend on the processing

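Most members held a single Il21 UMI. Counts of calls moved in both directions between settings, and the cause was not tested. The number of genes that differed between members and comparison cells (872) was 542 to 818 with 1 library left out, 542 with thinning to 2000 UMIs, 567 with at least 2 Il21 UMIs and 464 without cells holding markers of other cell types, which removed 438 of the 773 members. The count for members with against without Ifng (195) was 64 to 215 with 1 library left out, 380 with no low-count filter, 15 with thinning, 20 at 3000 to 6000 UMIs, 0 at 2 Il21 UMIs, 56 without other-type markers and 83 without cycling cells. Among cells with Ifng (466) it was 215 to 449 with 1 library left out, 241 with thinning, 200 at 2 Il21 UMIs and 303 without other-type markers. The interaction count (11) was 4 to 32 with 1 library left out, 38 with DESeq2, 170 with no low-count filter, 7 with thinning, 5 at 3000 to 6000 UMIs, 1 at 2 Il21 UMIs, 3 without other-type markers and 19 without the most frequent receptor pair. Of its calls 72.7% were positive, against 39.5% with DESeq2 and 53.3% with library size alone. Against Cxcr5-positive cells (473) it was 274 to 379 with 1 library left out, 308 with DESeq2, 263 with thinning and 203 without other-type markers. Without the replicate block the counts were 398, 33, 166, 0 and, against Cxcr5-positive cells, 490. The share of members was 2.23% with thinning and 1.25% at 2 Il21 UMIs, and the share of them with Ifng 50.1% and 65.2%. The settings on cycling cells, CD8 chains and receptor pairs were added after the data were seen.

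Some log2 differences changed sign. Between members and comparison cells Pkm was -0.055 with thinning and -0.018 at 3000 to 6000 UMIs. Between members with and without Ifng, thinning gave -0.010 for Ifngr1, -5.38 for Jchain, 0.051 for Ldha, 0.0009 for Npm1 and 0.043 for Pkm, the depth window 0.030 for Ldha, the gate of 2 Il21 UMIs 0.36 for Tnfsf11 and 0.29 for Tpi1, and leaving out cycling cells 0.036 for Tpi1. For the interaction, Jchain was -4.55 with thinning, and Ccl1 0.52 in the depth window, 0.83 without other-type markers and 1.02 without cycling cells. Calls held under every setting for 48 of 78 named genes in the first comparison, 0 of 50 in the second, 30 of 68 in the third, 0 of 6 in the interaction and 51 of 72 against Cxcr5-positive cells.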

Other observations

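T cell receptor variable genes were read from the same 5′ counts, as a description. Members with both a Trav and a Trbv transcript numbered 126, 170, 114 and 108 in libraries 1 to 4. The chance that 2 of them carried the same pair of variable genes was 3.28%, 3.56%, 4.80% and 1.54%, against 0.856%, 1.76%, 0.806% and 1.18% in comparison cells. The most frequent pair made up 13.5%, 12.4%, 20.2% and 9.26% of these members (17, 21, 23 and 10 cells), and the same pair made up 3.97%, 8.25%, 3.18% and 4.76% of comparison cells with a pair. Each pair was chosen for its frequency in members, which favours a higher share there. The most frequent pairs of members differed between libraries: Trav4-3 with Trbv3, Trav14-1 with Trbv16, Trav4-4-dv10 with Trbv31 and Trav6-7-dv9 with Trbv16. A shared pair of variable genes is not a shared clone, since the junctions were not analysed here. Without cells of the most frequent member pair, 812 genes differed between members and comparison cells, 209 between members with and without Ifng, 396 among cells with Ifng and 440 against Cxcr5-positive cells.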
